A study of Mus musculus with 8 samples.

Results

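The collagen genes of mouse were followed here across 8 Affymetrix 3' expression arrays of NIH3T3 and B16F10 cells. A probe set is the group of short array probes that reads 1 transcript end. Members were all probe sets whose only annotated gene symbol had the form of a collagen alpha chain (Col, a number, a, a number). The rule gave 82 probe sets of the 45101 on the array, which stood for 42 of the 18194 genes that a lone symbol names: 11 genes of fibrillar chains, 8 of basement membrane chains (types IV, XV and XVIII) and 23 of other chains. The sample titles gave 4 groups. In NIH3T3 these were 1 control array and 3 arrays labelled PGC7 (clone 1, clone 2 and a mixture taken before cloning), and in B16F10 they were 1 control array and 3 arrays labelled PGC7 (clones 1, 2 and 3). NIH3T3 is a line of mouse embryonic fibroblasts and B16F10 a line of mouse melanoma cells. PGC7, also named Stella or Dppa3, is a protein of the egg and germ cells known to shield DNA methylation from loss after fertilization. It was delivered to growing cells by an overnight incubation with virus and polybrene, an agent that helps virus enter cells. The sources used here do not state the promoter in the virus, or if control cells received a virus without PGC7. The genotype label named the protein PGC8 and called all 6 samples pre-cloned, so the titles were used for the groups.

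Collagens are built from 3 alpha chains wound into a triple helix. Fibrillar chains (types I, II, III, V, XI, XXIV and XXVII) pack into the fibrils of connective tissue, and type I, made of Col1a1 and Col1a2 chains, is the main collagen that fibroblasts secrete. Type IV chains form the sheet of the basement membrane, and the remaining types form beaded filaments (type VI), short-chain lattices (type VIII), links on the fibril surface (types IX, XII, XIV and XVI) or membrane-anchored and anchoring structures (types VII and XVII). Chains are hydroxylated and folded in the endoplasmic reticulum, trimmed after secretion and cross-linked by lysyl oxidases.

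Each array was scaled to a 2% trimmed mean of 500, and levels are given on that linear signal scale. Before scaling, the trimmed mean was 143 to 189 on the NIH3T3 arrays and 500.003 on each B16F10 array. Dppa3 itself, read by 1 probe set, was at 69.8 in the NIH3T3 control and at 29.7, 55.4 and 101 on the NIH3T3 arrays labelled PGC7, so it did not separate them. It was at 23.5 in the B16F10 control and at 70.0, 71.0 and 117 on the arrays labelled PGC7, with no call in either line (adjusted p = 0.802 and 0.27, limma). The sources do not state whether that probe set can read the introduced sequence, so this is no check of the labels, and every direction below is one between arrays as labelled. The summed signal of fibroblast markers other than collagens was 87441 to 106964 on the NIH3T3 arrays and 2259 to 2760 on the B16F10 arrays. In that list Fbln1 went the other way, at 11.9 to 64.8 in NIH3T3 and 915 to 1514 in B16F10. The summed signal of melanocyte markers was 667 to 953 in NIH3T3 and 112865 to 148950 in B16F10. The labels do not say that clones came from separate cultures, so p-values measure the spread between these samples only, and each control is a lone array whose spread is taken to be that of the other groups.

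Of the 82 probe sets, 44 were bright enough to test, and they stood for 26 genes. A probe set was tested where its mean log2 signal in at least 1 line reached the median of all values, a signal of 49.3. It passed through both lines in 15 cases, through NIH3T3 alone in 22 and through B16F10 alone in 7. Of the 38 that were not tested, 34 stayed under 100 on all 8 arrays. The 16 genes with no tested probe set were Col2a1, Col11a1 and Col24a1 of the fibrillar class, Col4a3, Col4a4 and Col18a1 of the basement membrane class, and Col6a4, Col6a5, Col8a2, Col9a2, Col10a1, Col13a1, Col19a1, Col23a1, Col25a1 and Col26a1 of the others. The plot of signals by array shows the tested genes. Most of them lie above the filter in NIH3T3, and fewer do in B16F10.

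**Figure D1:**
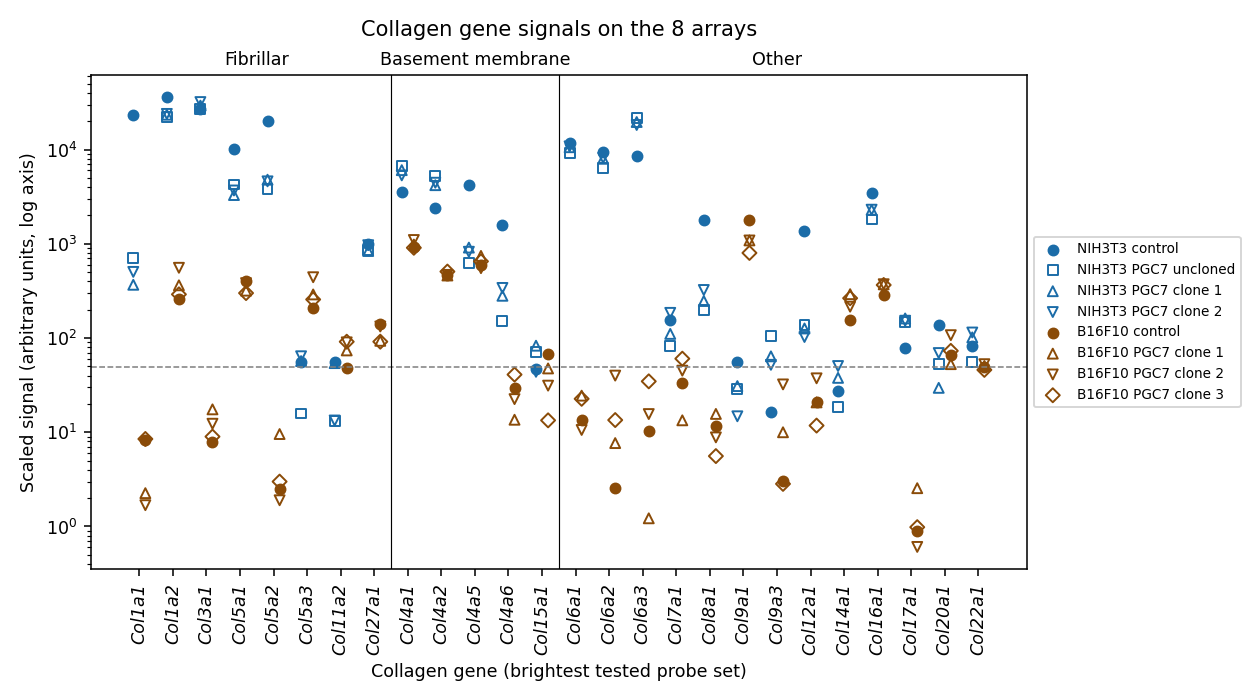
Scaled signal of the 26 tested collagen genes (1 probe set per gene, the brightest tested) on each of the 8 arrays, on a log axis. NIH3T3 (blue) and B16F10 (brown) points stand side by side at each gene, with lines between the collagen classes. The control is a filled circle, and the arrays labelled PGC7 are open: a square (uncloned mixture), triangles (clones 1 and 2) and a diamond (clone 3). The dashed line is the filter at a signal of 49.3. Col1a1 shows the widest gap, from 23293 in the NIH3T3 control to 367 to 703 on the arrays labelled PGC7.

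The first comparison asked how NIH3T3 cells labelled PGC7 differed from the NIH3T3 control. Col1a1 of type I collagen, Col5a1 and Col5a2 of type V, and Col4a5, Col4a6, Col8a1, Col12a1 and Col16a1 fell, and Col4a1 and Col4a2 rose. Of the 44 tested probe sets, 19 passed an adjusted p of 0.05 (limma on log2(signal + 9), Benjamini-Hochberg over 25236 probe sets), 17 lower and 2 higher. Over all tested probe sets 12.8% passed, 6.32% lower and 6.47% higher. With the signals as deposited the split was 17 lower and 0 higher of 45, where 8.29% of all tested probe sets passed. In bulk RNA, fewer cells of a type and less RNA per cell cannot be told apart. Counted by gene, 10 of 26 passed, 8 lower and 2 higher. The median log2 change of the 26 genes was -0.37, against -0.07 over all tested probe sets, and their median absolute change was 0.92 against 0.38. The 3 arrays labelled PGC7 all lay below the control for 15 of the 26 genes and all above it for 6, where over all tested probe sets the shares were 38.3% and 28.9%. The plot of changes by class shows these values.

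**Figure D2:**
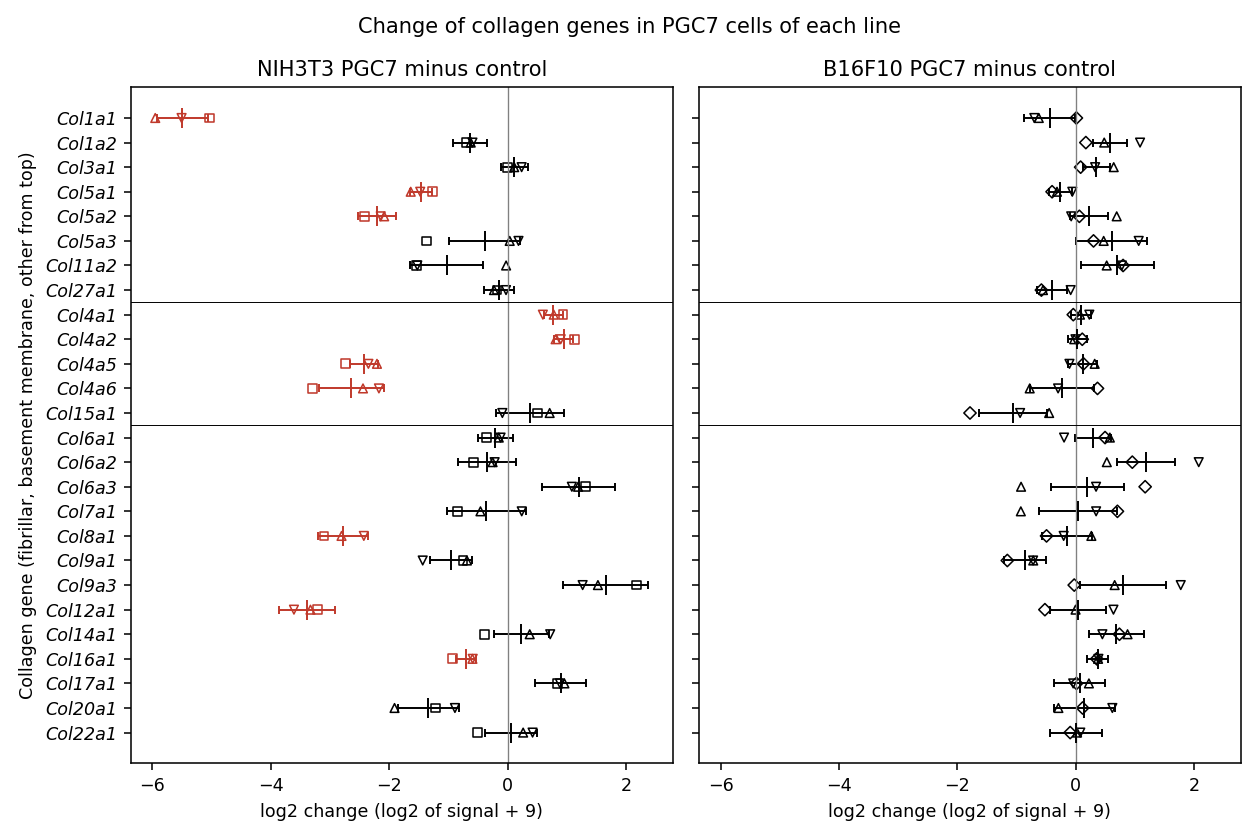
Log2 change (arrays labelled PGC7 minus control, with its SE) of the 26 tested collagen genes by class, in NIH3T3 and B16F10, with red for genes that passed an adjusted p of 0.05. In NIH3T3, 10 genes passed, from -5.50 for Col1a1 to 0.95 for Col4a2, and in B16F10 none passed, with values from -1.06 to 1.19.

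Among the fibrillar chains, 8 of 11 genes were tested, and 3 fell (Col1a1, Col5a1 and Col5a2), with a median of -0.83. Col1a1, the alpha 1 chain of type I collagen (chr11:94936224-94953042, RefSeq on GRCm38.p6), was at 23293 in the NIH3T3 control, 703 in the uncloned mixture, 367 in clone 1 and 503 in clone 2. All 3 arrays labelled PGC7 were far below the control, and their mean was 524 ± 169 (SD, n = 3), which is 44.4-fold lower. The log2 change was -5.50 ± 0.43 (SE; adjusted p = 0.000271, limma). The other Col1a1 probe set gave -4.79 ± 0.46 (adjusted p = 0.000599), from 2234 to 104, 64.5 and 55.1.

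Col1a2, the alpha 2 chain that joins Col1a1 in type I collagen (chr6:4505618-4541543), was read by 3 probe sets that differed in size. The brightest had 36063 in the control and 22298, 23429.7 and 23908 on the arrays labelled PGC7, and its change of -0.64 ± 0.28 was not called (adjusted p = 0.178; 0.0382 on the NIH3T3 arrays alone and 0.0415 without B16F10 clone 2). The second brightest had 22619 against 6091, 7114 and 8114, a change of -1.68 ± 0.42 (adjusted p = 0.0344). The dimmest had 664 against 67.4, 57.8 and 72.4, a change of -3.17 ± 0.39 (adjusted p = 0.00169). All 3 probe sets were lower on every array labelled PGC7. Before scaling, the brightest stood at 75.4% of the highest value of its array in the control and at 39.1% to 47.6% on the arrays labelled PGC7, and the part of saturation in its smaller change was not tested.

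Col3a1, the chain of type III collagen (chr1:45311538-45349706), had no called probe set. Its brightest had 27079 in the control and 27100.3, 29270.5 and 31937 on the arrays labelled PGC7 (mean 29436 ± 2422, SD, n = 3; log2 change 0.12 ± 0.22, adjusted p = 0.778; -0.01 with the signals as deposited). Its dimmer probe set had 2442 against 1259.7, 1020.3 and 1546, a change of -0.95 ± 0.32 that was not called (adjusted p = 0.0874). The probe sets of Col3a1 thus had changes of opposite sign. Before scaling, the brightest stood at 48.8% to 58.5% of the highest value of its array on the 4 NIH3T3 arrays, and the part of saturation in its value was not tested.

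Col5a1 and Col5a2, chains of type V collagen, which is built into type I fibrils and sets their width, both fell. Col5a1 (chr2:27886381-28039510) had 10247 in the control and 4255, 3291 and 3679.9 on the arrays labelled PGC7, which is 2.74-fold lower (log2 change -1.46 ± 0.19, adjusted p = 0.00214). Col5a2 (chr1:45374331-45503282) had 20343 in the control and 3816, 4789.8 and 4601, with a mean of 4402 ± 516 (SD, n = 3), which is 4.62-fold lower (-2.21 ± 0.32, adjusted p = 0.00371; 0.0589 with a pseudocount of 1). The gap between Col3a1 and Col5a2 is 24624 bases, and the neighbours differed in their changes (0.12 and -2.21). The dimmer probe set of Col5a2 fell too (-3.08), as did 1 of the 2 further probe sets of Col5a1 (-1.71), while the other (-1.60, adjusted p = 0.0512) was not called.

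The remaining tested fibrillar chains were not called in NIH3T3. Col27a1, a fibrillar chain of cartilage, had 984 in the control and 838 to 967 on the arrays labelled PGC7. Col5a3, a further type V chain, was dim in NIH3T3, at 55.3 in the control and 15.8 to 64.1 on the arrays labelled PGC7. Col11a2 had 55.2 against 13.1 to 54.2. Col11a1, a chain of cartilage fibrils, was under the filter, and without the filter both its probe sets were lower, 1 of them from 318 in the control to 24.2, 4.54 and 1.74 (-4.28, adjusted p = 0.0144).

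The plot of probe sets of a gene shows where readings of the same gene differed.

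**Figure D3:**
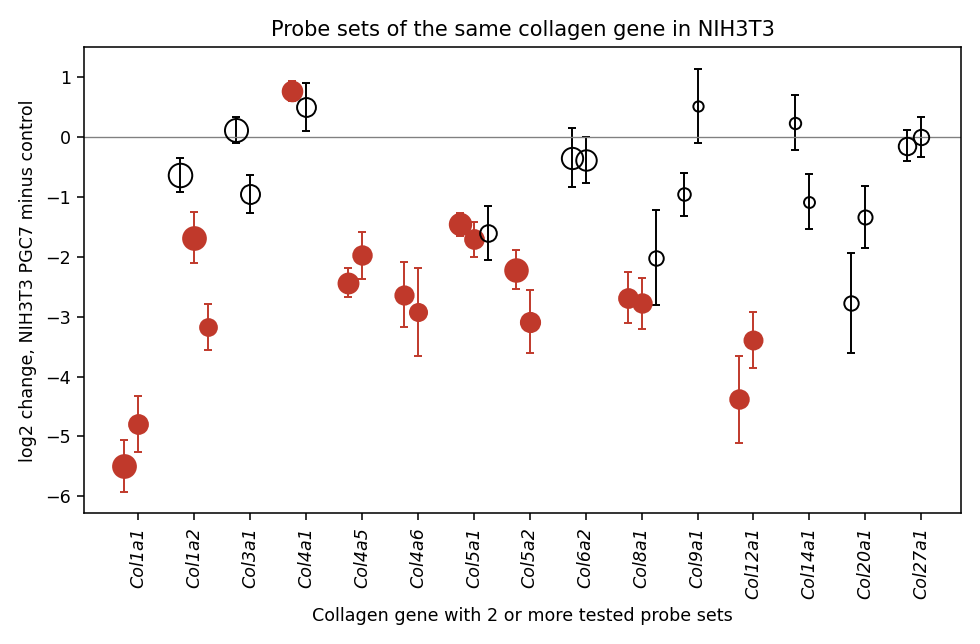
NIH3T3 log2 change (arrays labelled PGC7 minus control, with its SE) of every tested probe set of the collagen genes with more than 1 tested probe set, with filled red points for called and open points for uncalled ones and a point size that grows with the control signal. The Col1a2 probe sets lie at -0.64, -1.68 and -3.17 and those of Col3a1 at 0.12 and -0.95.

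Among the basement membrane chains, 5 of 8 genes were tested. Col4a1 and Col4a2 rose and Col4a5 and Col4a6 fell, so the class had no common direction, with a median of 0.38 (-0.44 without clone 2) and a range of -2.64 to 0.95. Col4a1 and Col4a2, which assemble into the type IV network found in nearly every basement membrane, lie head to head on chromosome 8. Col4a1 (chr8:11198423-11312889) had 3516 in the control and 6729.9, 6047 and 5322 on the arrays labelled PGC7 (log2 change 0.77 ± 0.16, adjusted p = 0.0185). Col4a2 (chr8:11312805-11449287) had 2382 in the control and 5218, 4189.7 and 4449.6 (0.95 ± 0.16, adjusted p = 0.00678). Every array labelled PGC7 was above the control for both genes. With the signals as deposited neither was called (adjusted p = 0.141 and 0.0854), and the Col4a1 call was also lost without the variance trend (0.0687) and on the NIH3T3 arrays alone (0.0674). A dimmer Col4a1 probe set gave 0.50, not called (adjusted p = 0.459).

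Col4a5 and Col4a6, chains of a rarer type IV network found in kidney and smooth muscle basement membranes, lie head to head on the X chromosome. Col4a5 (chrX:141475370-141689236) had 4237 in the control and 628, 911 and 823 on the arrays labelled PGC7, which is 5.38-fold lower (-2.43 ± 0.24, adjusted p = 0.000614). Its other tested probe set fell too (-1.97, adjusted p = 0.0141). Col4a6 (chrX:141165403-141474095) had 1566 in the control and 151, 281 and 340.2, which is 6.08-fold lower (-2.64 ± 0.54, adjusted p = 0.0165). The gene models are 1274 bases apart, and both genes fell by a similar size. The other X-linked genes, 352 of them, had a median log2 change of -0.41 against -0.03 for 11217 genes not on X, and 11.9% of them were called lower against 7.16%. The X-linked medians of the uncloned mixture, clone 1 and clone 2 were -0.77, -0.22 and -0.25, and the part of this X-wide shift in the Col4a5 and Col4a6 values was not tested. Col15a1, of the multiplexin group, had 47.1 in the control and 43.8 to 82.9 and was not called. Of Col18a1, under the filter, 1 probe set was lower without the filter, from 116 to 15.3, 3.67 and 12.1 (-2.74, adjusted p = 0.0245).

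Stretches of promoter are printed for 6 genes, so that 4 genes that fell (Col4a5, Col4a6, Col5a1 and Col8a1) can be read beside Col1a2 and Col3a1, whose representative probe sets were not called. RefSeq promoter windows (GRCm38.p6, the first 250 bases of each promoter entry) matched 33 of the 42 genes, and Col1a1, Col5a2 and Col12a1 had no entry. The windows of Col4a5, Col4a6 and Col5a1 run into their gene models, so their printed stretches have 201, 231 and 206 bases. Capitals mark the letters of the TATA box (TATAAA), of the CCAAT box (CCAAT) and of the GC box (GGGCGG), or their reverse complements, and each stretch stops where a gene model begins. The stretches lie on the plus strand for Col1a2 at chr6:4505368-4505617, Col3a1 at chr1:45311288-45311537, Col4a5 at chrX:141475169-141475369 and Col5a1 at chr2:27886175-27886380, and on the minus strand for Col4a6 at chrX:141474096-141474326 and Col8a1 at chr16:57754738-57754987.
Col1a2: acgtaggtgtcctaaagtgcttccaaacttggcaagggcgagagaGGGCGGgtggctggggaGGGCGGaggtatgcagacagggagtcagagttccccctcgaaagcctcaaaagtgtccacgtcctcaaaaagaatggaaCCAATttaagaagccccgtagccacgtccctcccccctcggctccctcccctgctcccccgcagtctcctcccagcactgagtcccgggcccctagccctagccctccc
Col3a1: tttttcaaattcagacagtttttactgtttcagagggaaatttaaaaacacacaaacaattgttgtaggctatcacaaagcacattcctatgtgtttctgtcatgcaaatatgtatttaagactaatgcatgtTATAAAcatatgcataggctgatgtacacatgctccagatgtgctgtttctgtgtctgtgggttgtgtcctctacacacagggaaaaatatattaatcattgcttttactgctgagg
Col4a5: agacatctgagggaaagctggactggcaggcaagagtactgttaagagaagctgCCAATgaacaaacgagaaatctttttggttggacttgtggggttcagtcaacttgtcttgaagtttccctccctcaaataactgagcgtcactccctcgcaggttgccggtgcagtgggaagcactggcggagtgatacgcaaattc
Col4a6: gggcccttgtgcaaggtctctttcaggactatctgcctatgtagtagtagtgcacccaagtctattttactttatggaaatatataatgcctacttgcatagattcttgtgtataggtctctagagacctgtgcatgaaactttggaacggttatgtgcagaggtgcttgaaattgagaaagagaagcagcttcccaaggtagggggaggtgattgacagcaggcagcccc
Col5a1: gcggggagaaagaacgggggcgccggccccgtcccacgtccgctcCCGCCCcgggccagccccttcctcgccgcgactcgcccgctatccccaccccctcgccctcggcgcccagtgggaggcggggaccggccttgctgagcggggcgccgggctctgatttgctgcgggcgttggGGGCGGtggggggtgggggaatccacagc
Col8a1: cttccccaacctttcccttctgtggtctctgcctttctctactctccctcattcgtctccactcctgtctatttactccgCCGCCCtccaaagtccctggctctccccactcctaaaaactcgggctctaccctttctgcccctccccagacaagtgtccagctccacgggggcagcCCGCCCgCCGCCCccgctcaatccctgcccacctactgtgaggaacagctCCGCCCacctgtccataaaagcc
Among the 6 printed genes, the windows of Col3a1 and Col5a1 differed most in CpG, with 0 and 28 in the 250 bases. The median over all 32851 windows was 6. The Col1a2 window had 11, that of Col8a1 10, that of Col4a5 10 and that of Col4a6 3. The shorter printed stretches had 25 for Col5a1, 6 for Col4a5 and 1 for Col4a6. Among windows not printed, those of Col4a1 and Col4a2, which rose, had 31 and 26 CpG. That of Col16a1, which fell, had 21. The windows of Col4a5 and Col4a6 each hold 1 GC box that the printed stretch does not. TATAAA stood in the window of 5 of the 36 collagen entries (13.9%, and 12.4% of all windows), CCAAT in 13 (36.1%, and 33.8%) and GGGCGG in 21 (58.3%, and 32.7%), read on both strands. These are matches of letters, with no test, and the arrays measured no factor at these places.

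Of the other collagens, 13 of 23 genes were tested, and 3 fell (Col8a1, Col12a1 and Col16a1), with a median of -0.35 (-0.18 without the uncloned mixture). Col8a1, a chain of the lattice under endothelia (chr16:57624256-57754737), had 1781 in the control and 199.7, 247 and 324 on the arrays labelled PGC7, which is 6.93-fold lower (-2.78 ± 0.42, adjusted p = 0.00466). A further Col8a1 probe set fell too (-2.68, adjusted p = 0.00573). The dimmest had 172 against 13.1, 30.0 and 94.4 and was not called (-2.02, adjusted p = 0.134). Col12a1, which coats type I fibrils (chr9:79598987-79721141), had 1351 in the control and 137, 126 and 103, which is 11.1-fold lower (-3.38 ± 0.47, adjusted p = 0.00303). A brighter reading of Col12a1 in the control had 1845 against 37.7, 149 and 87.8 (-4.38, adjusted p = 0.00674). Each of these genes was lower on every array labelled PGC7. Col16a1, also a fibril-associated chain (chr4:130047817-130099277), had 3464 in the control and 1810.1, 2293 and 2301, which is 1.62-fold lower (-0.70 ± 0.17, adjusted p = 0.0333), a call that held in 9 of 15 alternatives.

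The chains of type VI collagen, which form beaded filaments around cells, were bright in NIH3T3 and not called. Col6a1 (chr10:76708792-76726044) had 11734 in the control and 9164, 10589.7 and 10816 on the arrays labelled PGC7 (-0.21). Col6a2 (chr10:76595756-76623630) had 9516 in the control and 6388, 7987 and 8180.5 (-0.35). Col6a3 (chr1:90766860-90844001) had 8581 in the control and 21472, 19608 and 18232, all above it, a change of 1.20 ± 0.61 (adjusted p = 0.241). On the NIH3T3 arrays alone Col6a3 passed (adjusted p = 0.0106), as it did with the pseudocount at the median signal (0.0141) and with the spike scaling (0.0152).

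The dimmer other chains were not called either. Col17a1, a transmembrane collagen of epithelia, had 78.5 in the control and 148, 161 and 153 on the arrays labelled PGC7 (0.90). Col9a3, of type IX collagen, had 16.3 against 105, 63.9 and 52.0 (1.66 ± 0.72, adjusted p = 0.171). Col20a1 had 136 against 53.5, 29.6 and 69.3 (-1.34), and its other tested probe set gave -2.76 (adjusted p = 0.0638). The tested probe sets of Col9a1 had changes of opposite sign (-0.96 and 0.52), as had those of Col14a1 (0.23 and -1.08), with none called. Col22a1, of tissue junctions, had 83.1 against 55.7, 102 and 114, and Col7a1, which forms anchoring fibrils, had 155 against 82.1, 111 and 185, both with overlapping values. Col10a1, a chain of growth plate cartilage under the filter, was lower without it, from 52.9 to 2.74, 3.25 and 8.44 (-2.19, adjusted p = 0.0137).

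The second comparison asked the same in B16F10. No collagen probe set was called of 44, where 1.19% of all tested probe sets were, and 3 had an unadjusted p below 0.05 (limma). The median log2 change of the 26 genes was 0.10, against 0.02 over all tested probe sets, and the median absolute change was 0.27 in both. All 3 arrays labelled PGC7 lay above the control for 7 genes and below it for 4, where the shares over all tested probe sets were 37.0% and 32.2%. Col9a1, a chain of fibril-associated type IX collagen (chr1:24177589-24252738), is a chain known from cartilage and had 1791 in the control and 1086, 1085 and 799.9 on the arrays labelled PGC7, all below the control (-0.86 ± 0.35, adjusted p = 0.30). On the B16F10 arrays alone Col9a1 was the 1 collagen probe set of 22 to pass (adjusted p = 0.0191), in a fit where 14.0% of all tested probe sets passed. Of the genes called in NIH3T3, none was called in B16F10. Col4a5 had 593 against 744, 551 and 651, with the control inside the range of the clones. Col4a1 had 933 against 983, 1097 and 908, and Col16a1 had 283 against 371, 372 and 365. Col1a2 had 257 against 363, 556 and 291 (0.58, adjusted p = 0.381), and Col6a2 had 2.58 against 7.68, 39.9 and 13.5 (1.19 ± 0.49, adjusted p = 0.307), near the bottom of the scale.

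The difference of the changes, NIH3T3 minus B16F10, was tested next. Of the 44 probe sets 13 passed, 12 lower and 1 higher, where 6.88% of all tested probe sets did (3.8% lower and 3.08% higher), and 22 had an unadjusted p below 0.05. With a spike-in scaling the split was 9 lower and 4 higher of 43. Over all tested probe sets 23.7% passed with that scaling, and the median difference was 0.84. The count was 7 without NIH3T3 clone 1 and 5, 6 and 7 without B16F10 clone 1, 2 and 3. Of all tested probe sets 4.72%, 2.93%, 3.86% and 3.08% passed in these fits. By gene, each read by its representative probe set, 8 of 26 passed: Col1a1, Col5a1, Col5a2, Col4a5, Col8a1, Col12a1 and Col16a1 with the change lower in NIH3T3, and Col4a2 with it higher. The difference of Col1a1 was -5.06 ± 0.61 (adjusted p = 0.00378, limma) and that of Col4a5 -2.55 ± 0.34 (adjusted p = 0.00508). The dimmest Col1a2 probe set passed too (-3.78, adjusted p = 0.00754), while its brighter ones did not (adjusted p = 0.111 and 0.0689). Further probe sets of Col5a1 (adjusted p = 0.0889 and 0.122) and Col5a2 (0.126) and the dimmest of Col8a1 (0.303) did not pass. Of these 8 genes, 4 lay under the filter of 49.3 on every B16F10 array and had been tested through NIH3T3 alone. On the B16F10 control and clones 1, 2 and 3, Col1a1 had 8.33, 2.26, 1.68 and 8.49, and Col5a2 had 2.48, 9.57, 1.90 and 2.99. Col8a1 had 11.5, 15.7, 8.82 and 5.59 there, and Col12a1 had 20.8, 20.7, 37.4 and 11.8. A fall in B16F10 was not detectable for these 4 genes, so their tests of the difference restate the NIH3T3 falls. The other 4 were read above the filter in both lines: Col4a5 at 551 to 744 and Col16a1 at 283 to 372 in B16F10, Col5a1 at 398, 318, 382 and 300.0, and Col4a2 at 469, 461, 468 and 507. The Col4a1 and Col4a6 differences did not pass (adjusted p = 0.12 and 0.103), and Col4a6, at 29.7, 13.6, 22.5 and 40.9 in B16F10, lay under the filter there.

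Between the lines, 39 of the 44 tested probe sets passed, 34 higher and 5 lower in NIH3T3, where 71.5% of all tested probe sets passed (42% higher and 29.6% lower). The filter bears on this split, since 22 of the 44 passed it through NIH3T3 alone and 7 through B16F10 alone. Without the filter 39 of all 82 probe sets were higher in NIH3T3 and 8 lower, with 43.2% of all probe sets called. With the signals as deposited the split was 28 higher and 12 lower of 45. Over all tested probe sets 82.6% passed with those signals, and the median difference was -1.36. Col3a1 had 27079 to 31937 in NIH3T3 and 7.97, 17.5, 12.3 and 8.99 on the B16F10 control and clones 1, 2 and 3. Col6a1 had 13.4, 24.5, 10.6 and 22.6 on those arrays, and Col6a3 had 10.4, 1.22, 15.6 and 34.7. These B16F10 signals lie under the filter of 49.3, where the size of a log2 difference depends on the pseudocount of 9, so no size or order is given for these genes. Among genes read above the filter in both lines, Col1a2 (257 to 556 in B16F10), Col27a1 (91.5 to 141 in B16F10), Col5a1, Col4a1, Col4a2, Col4a5 and Col16a1 were called higher in NIH3T3. Col9a1 was higher in B16F10 (adjusted p = 6.91e-07), with 55.2, 29.1, 30.9 and 14.8 on the NIH3T3 control, mixture, clone 1 and clone 2. Col14a1, a fibril-associated chain, had 155, 292, 215 and 265 on the B16F10 control and clones and 27.1, 18.5, 37.8 and 50.5 on the NIH3T3 arrays in that order. Col5a3 had 206, 290.1, 442 and 257 in B16F10 and was also higher there (adjusted p = 0.00141). These differences compare whole lines and include the arrays labelled PGC7.

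Genes that make, finish or read collagen were set beside the members, in 3 lists. Of 22 genes for synthesis, folding and export, 20 were tested, and 4 fell and 1 rose in NIH3T3. Their median was -0.17, against -0.07 over all tested probe sets, where 6.32% were called lower and 6.47% higher. Serpinh1, the collagen chaperone of the endoplasmic reticulum, had 13460 in the control and 7748, 6054 and 6553 on the arrays labelled PGC7 (adjusted p = 0.00324). P4ha3, a prolyl hydroxylase subunit, had 533 against 75.0, 123 and 91.9 (-2.38 ± 0.50, adjusted p = 0.018), and both lay below the control on every array labelled PGC7. P3h3, a prolyl 3-hydroxylase, had 1687 against 872, 819 and 853 (adjusted p = 0.00625). Creb3l1, a transcription factor of the collagen secretory pathway, had 522 against 131, 88.9 and 181 (-1.95 ± 0.42, adjusted p = 0.0205). Plod2, the lysyl hydroxylase that acts on the chain ends where cross-links form, rose from 563 to 2946, 2411 and 2795 (2.25 ± 0.20, adjusted p = 0.00045). In B16F10 none of the 20 was called, where 1.19% of all tested probe sets were, and 6 had an unadjusted p below 0.05 (limma). The median was 0.26, against 0.02 over all tested probe sets.

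Of 15 genes for processing and cross-linking, 8 were tested, and 4 fell and none rose in NIH3T3. Their median was -1.30, against -0.07 over all tested probe sets, where 6.32% were called lower and 6.47% higher. Lox, which cross-links collagen and elastin, had 25603 in the control and 5412, 4512 and 5924 (-2.28 ± 0.24, adjusted p = 0.000874). Pcolce, which helps trim the type I procollagen end, had 17569 against 4479, 4284 and 4328 (-2.01 ± 0.19, adjusted p = 0.000491), and Loxl1, a lysyl oxidase needed for elastic fibres, had 12545 against 4819.6, 3711 and 4366 (-1.55, adjusted p = 0.00573). Sparc, a collagen-binding matrix protein, fell in both lines, by 1.04 ± 0.10 in NIH3T3 (adjusted p = 0.000553) and by 1.17 ± 0.10 in B16F10 (adjusted p = 0.00228), the difference of 0.13 not passing (adjusted p = 0.648). Its B16F10 signal was 12620 in the control and 5587, 5609 and 5626 on the arrays labelled PGC7. Of 10 receptor genes, 7 were tested, and 0 were called in NIH3T3 (1 with an unadjusted p below 0.05, limma) and 0 in B16F10 (2 unadjusted). Over all tested probe sets 12.8% were called in NIH3T3 and 1.19% in B16F10. The receptor medians were 0.08 in NIH3T3 and -0.10 in B16F10. In B16F10 the median of the processing list was -0.27, against 0.02 over all tested probe sets. The plot of pathway changes shows the 3 lists.

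**Figure D4:**
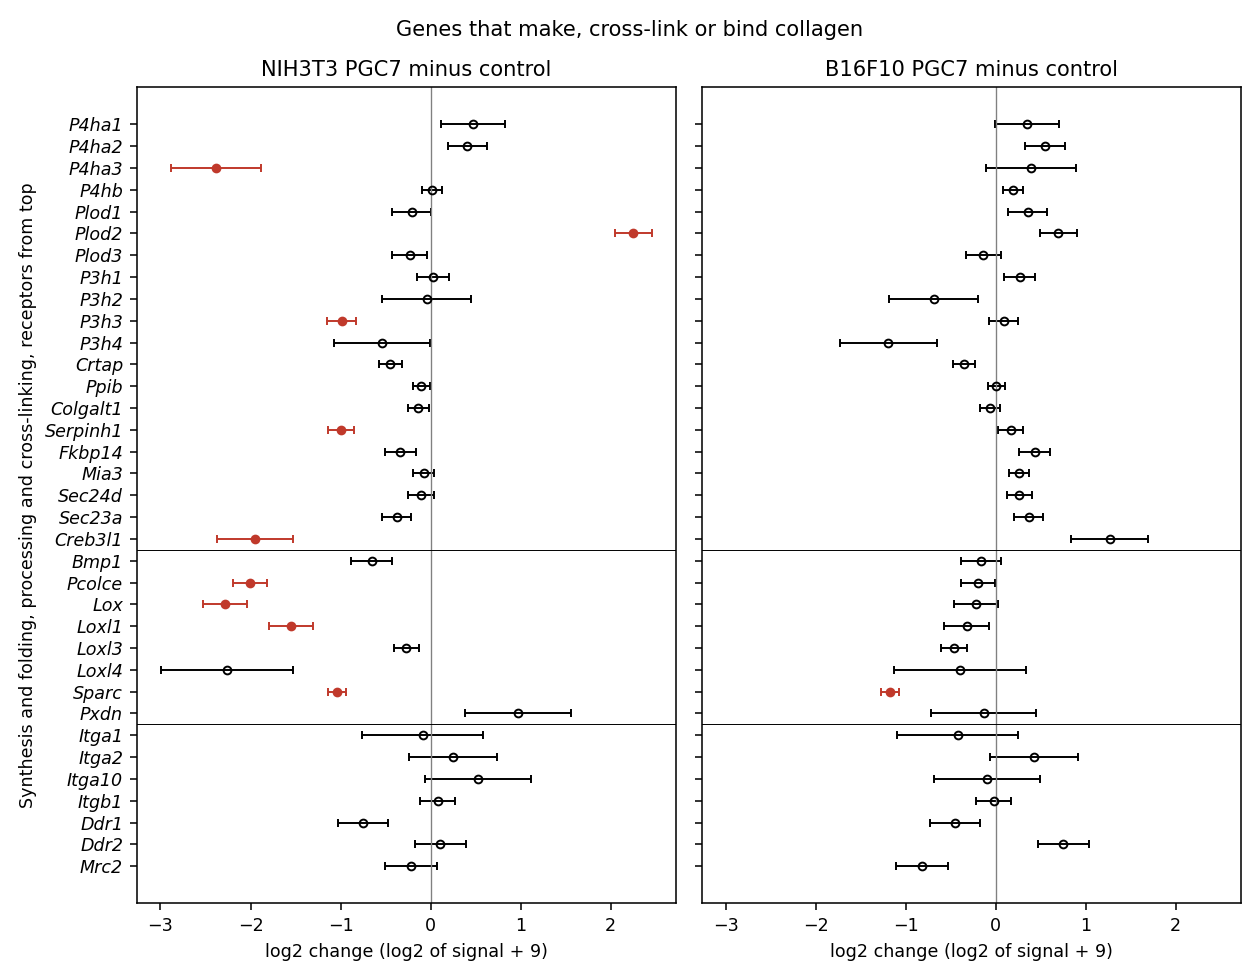
Log2 change (arrays labelled PGC7 minus control, with its SE) of the tested genes of collagen synthesis, processing and receptors in NIH3T3 and B16F10, with red for those that passed an adjusted p of 0.05. In NIH3T3 Plod2 is at 2.25 and P4ha3 at -2.38, and Sparc is the only called gene in B16F10, at -1.17.

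Markers of other cell types were read beside these changes. Smooth muscle markers summed to 19685 in the NIH3T3 control and to 3539 to 8874 on the arrays labelled PGC7, a sum carried by Acta2 and Tagln. Of the 3 tested, Tagln fell (2525 in the control, 250, 237 and 569; -2.93, adjusted p = 0.00805). Acta2 had 17049 against 6200, 3169 and 8124 and was not called (adjusted p = 0.168), nor was Des, with 95.3 against 94.8, 99.2 and 123. Myh11 (5.83 in the control and 16.6 to 48.4) and Cnn1 were under the filter. Of 9 tested fibroblast markers other than collagens, 2 fell (Fbln2, from 12169 to 821, 1361 and 1150.1, and Lum, from 262 to 52.5, 40.9 and 15.2) and none rose. Over all tested probe sets 6.32% were called lower and 6.47% higher. Endothelial markers summed to 64.0 to 181 in NIH3T3, with none of 5 tested. Cartilage and bone markers summed to 2235 in the NIH3T3 control and 3499, 4196 and 3811 on the arrays labelled PGC7, most of it Sox9, which was not called (0.82, adjusted p = 0.0608). Sp7, the other tested marker of that list, was at -0.32 and not called. Macrophage markers summed to 414 in the control and 418 to 538. Of the 3 tested none was called, with Ptprc at 1.15, Cd68 at 1.00 and Csf1r at -0.15. Under the filter, Lyz2 had 114 against 35.0, 31.7 and 38.6, and Adgre1 had 28.9 against 38.5, 24.0 and 60.2. The part of the smooth muscle, cartilage and macrophage markers in the collagen changes was not tested.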

How the data were processed

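Total RNA of 8 mouse cell samples was hybridized, 1 array each. The deposited table holds MAS5 intensity values for 45101 probe sets, per the submitters' processing notes; settings and background correction are not given in the sources used here. Each column was scaled to a 2% trimmed mean of 500 and transformed as log2(signal + 9). Probe sets were tested (25236) where the mean in at least 1 line reached the median of all values, after 64 control probe sets were left out and 19801 fell under it. limma 3.58.1 in R 4.3.3 fitted 4 group means over all 8 arrays with a variance trend (residual degrees of freedom 4, 8.50 in all), with two-sided p adjusted by Benjamini-Hochberg at 0.05. The number of arrays limits the precision. Genes were named by the platform annotation (34958 probe sets with 1 symbol, 932 with several and 9211 with none, of which only the first were used). Positions and promoters came from RefSeq on GRCm38.p6, which is not a build of the array. A gene was represented by its tested probe set with the highest mean log2 value. Values on every array were given for collagens called in a PGC7 comparison or in the difference of the changes, or with a mean above 1000 in a line, and from each pathway list for the called genes, at most 5 up and 5 down per line. Some dimmer members were added after their values were seen. Members and lists were chosen with earlier results of these data known. Alternatives changed the scaling, the pseudocount, the filter, the variance trend, the arrays fitted and the probe set rule, and left out 1 array at a time.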

Additional observations from a re-analysis of the deposited data

Results flagged for a closer look

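For 8 collagen genes, each read by its representative probe set, the change on arrays labelled PGC7 differed between the lines by the test of that difference itself (NIH3T3 change minus B16F10 change, log2). The difference was -5.06 ± 0.61 for Col1a1 (limma adjusted p = 0.00378), -2.55 ± 0.34 for Col4a5 (adjusted p = 0.00508), -2.44 ± 0.45 for Col5a2 (adjusted p = 0.0185) and -3.42 ± 0.67 for Col12a1 (adjusted p = 0.0213). These calls held in 15, 15, 14 and 13 of 15 alternatives. By limma it was -1.20 ± 0.27 for Col5a1 (adjusted p = 0.0337), -2.63 ± 0.60 for Col8a1 (adjusted p = 0.037), -1.08 ± 0.25 for Col16a1 (adjusted p = 0.0373) and 0.92 ± 0.22 for Col4a2 (adjusted p = 0.0451), and these held in 6, 6, 7 and 7 of 15. Col1a1, Col5a2, Col8a1 and Col12a1 lay under the filter of 49.3 on every B16F10 array, where a fall was not detectable, so for these 4 the difference restates the NIH3T3 fall.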

How the results depend on the processing

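The count of collagen probe sets called in NIH3T3, 19, was 15 to 23 over the alternatives, where 5.49% to 24.1% of all tested probe sets passed. The count between the lines, 39, was 38 to 47, where 43.2% to 82.6% of all tested probe sets passed. The 47 came without the filter, from all 82 probe sets. In B16F10 the count of 0 became 2 with a poly-A spike scaling (Col9a1 and a Col27a1 probe set, both lower) and 1 on the B16F10 arrays alone (Col9a1), where 13.2% and 14.0% of all tested probe sets passed. The 13 probe sets whose changes differed between the lines became 7 with a pseudocount of 1 and 7 without the variance trend. With 1 array left out, the count was 16 without the NIH3T3 mixture, 7 without NIH3T3 clone 1 and 9 without NIH3T3 clone 2. It was 5, 6 and 7 without B16F10 clone 1, 2 and 3. In these fits 2.93% to 17.4% of all tested probe sets passed, the most without the mixture. Clone numbers did not pair the lines (correlation of deviations 0.0092 for clone 1 and -0.097 for clone 2). A replicate block gave 17 and, between the lines, 39, where 14.6% and 74.6% of all tested probe sets passed. In that fit the NIH3T3 mixture and B16F10 clone 3 each had a term of their own. Neither array therefore bears on its result, and few residual degrees of freedom were left. It is among the 15 alternatives for the difference of the changes. Among class medians in NIH3T3, the fibrillar value of -0.83 became -1.31 with the mean of a gene's probe sets. The basement membrane value of 0.38 became -0.83 with the filter on all arrays or for type IV alone, and was -0.44 (without clone 2) to 0.31 with 1 array left out. That of the others, -0.35, became -0.018 with the spike scaling and was -0.18 (without the mixture) to -0.41 with 1 array left out. In B16F10 the fibrillar median of 0.29 became -0.034 with the spike scaling, 0.55 with a pseudocount of 1 and -0.032 with the mean of a gene's probe sets, and was 0.10 (without clone 1) to 0.40 with 1 array left out. The basement membrane median of 0.03 became -0.56, and that of the others, 0.15, became -0.35, with the spike scaling. The former was -0.014 without clone 3, and the latter was 0.12 to 0.37 with 1 array left out (0.37 without clone 1). The spike scaling moved the median of all tested probe sets to 0.25 in NIH3T3 and -0.61 in B16F10. The Col1a1, Col4a5, Col4a6, Col5a1, Col8a1 and Col12a1 calls in NIH3T3 held in all 15 alternatives, and those of Col5a2, Col4a2, Col4a1 and Col16a1 in 14, 14, 12 and 9. Among pathway genes, P4ha3 lost its call with a pseudocount of 1, P3h3, Serpinh1 and Sparc in NIH3T3 with the spike scaling, Creb3l1 on the NIH3T3 arrays alone, and Sparc in B16F10 without the variance trend. The causes were not tested. A lone control array per line and signals under the filter limit what can be told, since dim genes cannot show a fall.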
